A study of Mus musculus with 137 samples.

Results

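The genes described here are 9 members of the trophectoderm programme, chosen by name: Tead4, Yap1, Cdx2, Gata2, Gata3, Tfap2a, Tfap2c, Krt8 and Krt18. They are 9 of the 36097 genes to which the deposited transcript counts were summed by symbol, and all 9 had counts. Each library was made from the polyadenylated RNA of 1 whole mouse embryo of the B6129F1 strain at the 2-cell stage, by SmartSeq2 with oligo-dT priming. In all groups zygotes were taken 5 hours after fertilization and cultured in KSOM medium without an oil cover. The DMSO group (19 embryos in experiment 1 and 10 in experiment 2) had 0.1% DMSO, the solvent, in the medium from 6 hours after fertilization. The SR1848 group (17 and 24 embryos) had 10 µM SR1848, an inhibitor of the orphan nuclear receptor NR5A2, from the same hour. The NR5A2 mRNA group (27 and 40 embryos) had 10 µM SR1848 as well and received NR5A2 mRNA at 500 ng/µl. No group with NR5A2 mRNA and no inhibitor was labelled, and no group received an unrelated mRNA, so a response to injection and a response to NR5A2 cannot be told apart. The labels do not name the parents of an embryo, so each p measures the spread between these embryos.

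The trophectoderm is the outer epithelium of the blastocyst and gives rise to the placenta. In outer cells, where Hippo signalling is low, the coactivators YAP1 and WWTR1 enter the nucleus and act with the DNA-binding factor TEAD4, which is required for Cdx2 and for the trophectoderm fate. CDX2, GATA3, GATA2 and the AP-2 factors TFAP2C and TFAP2A maintain trophoblast gene expression, and keratins 8 and 18 pair to form the intermediate filaments of the epithelium. Tfap2c and Yap1 are also present as maternal mRNA in the egg, and the 2-cell stage is the time of the major wave of zygotic transcription in the mouse. NR5A2 binds DNA as a monomer and is known in the embryo as a regulator of genes that are active before and at the blastocyst stage.

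The 137 libraries held 100883 to 9317721 counts each (median 4694340). Libraries with less than 1 in 5 of the median total, or less than 1 in 2 of the median number of detected genes, are termed low, and there were 7 of them: 3 labelled DMSO, 1 labelled SR1848 and 1 labelled with NR5A2 mRNA in experiment 1, and 2 labelled with NR5A2 mRNA in experiment 2. Nr5a2 itself and GFP, for which the deposited table has entries although the labels do not mention it, were read first in order to check the labels. In experiment 1 Nr5a2 had a median of 108 CPM (counts scaled to the library total) in the DMSO group, 12.7 CPM in the SR1848 group and 2446 CPM in the NR5A2 mRNA group. In experiment 2 the levels went against 16 labels: the median was 2260 CPM of Nr5a2 and 2491 CPM of GFP in libraries 1 to 8 labelled DMSO, and libraries 1 to 8 labelled with NR5A2 mRNA had 108 CPM of Nr5a2 and at most 0.452 CPM of GFP. Experiment 1 is therefore described first, and values of experiment 2 are given as labelled and without these 16 libraries. In experiment 1, 9 of the 26 libraries labelled with NR5A2 mRNA that were not low had under 100 CPM of GFP, and their Nr5a2 had a median of 18.9 CPM. Stage markers moved with the groups of experiment 1 too: 53 oocyte transcripts summed to a median of 11903 CPM in the DMSO group, 33682 CPM in the SR1848 group and 25631 CPM in the NR5A2 mRNA group, and 24 transcripts of the 2-cell stage to 3901, 399.8 and 2301 CPM. The part of this in the results below was not tested. Each library is a whole embryo, so fewer cells with a transcript and less of it per cell cannot be told apart.

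In DMSO embryos of experiment 1 without low libraries (n = 16) the 9 genes fell into an abundant and a scarce set. Per transcript length, in TPM (counts scaled to length and then to the library), Tfap2c had a median of 63.9, Tead4 55.3 and Yap1 44.1. Among genes with a median above 0, these levels were at percentiles 82.5, 80.6 and 77.5. The other members were far lower: Gata2 had a median of 3.73 TPM, Krt8 1.35, Tfap2a 1.06, Gata3 1.06, Krt18 0.471 and Cdx2 0. Neighbours within each set had overlapping ranges over embryos. The order changed with treatment: in SR1848 embryos Yap1 led with 74.4 TPM, followed by Tfap2c at 28.1, Gata3 at 11.1 and Krt18 at 7.11, and in NR5A2 mRNA embryos Yap1 (91.1 TPM) was followed by Krt18 (77.9), Tfap2c (34.2), Gata2 (27.4), Gata3 (11.1) and Krt8 (10.3).

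**Figure D1:**
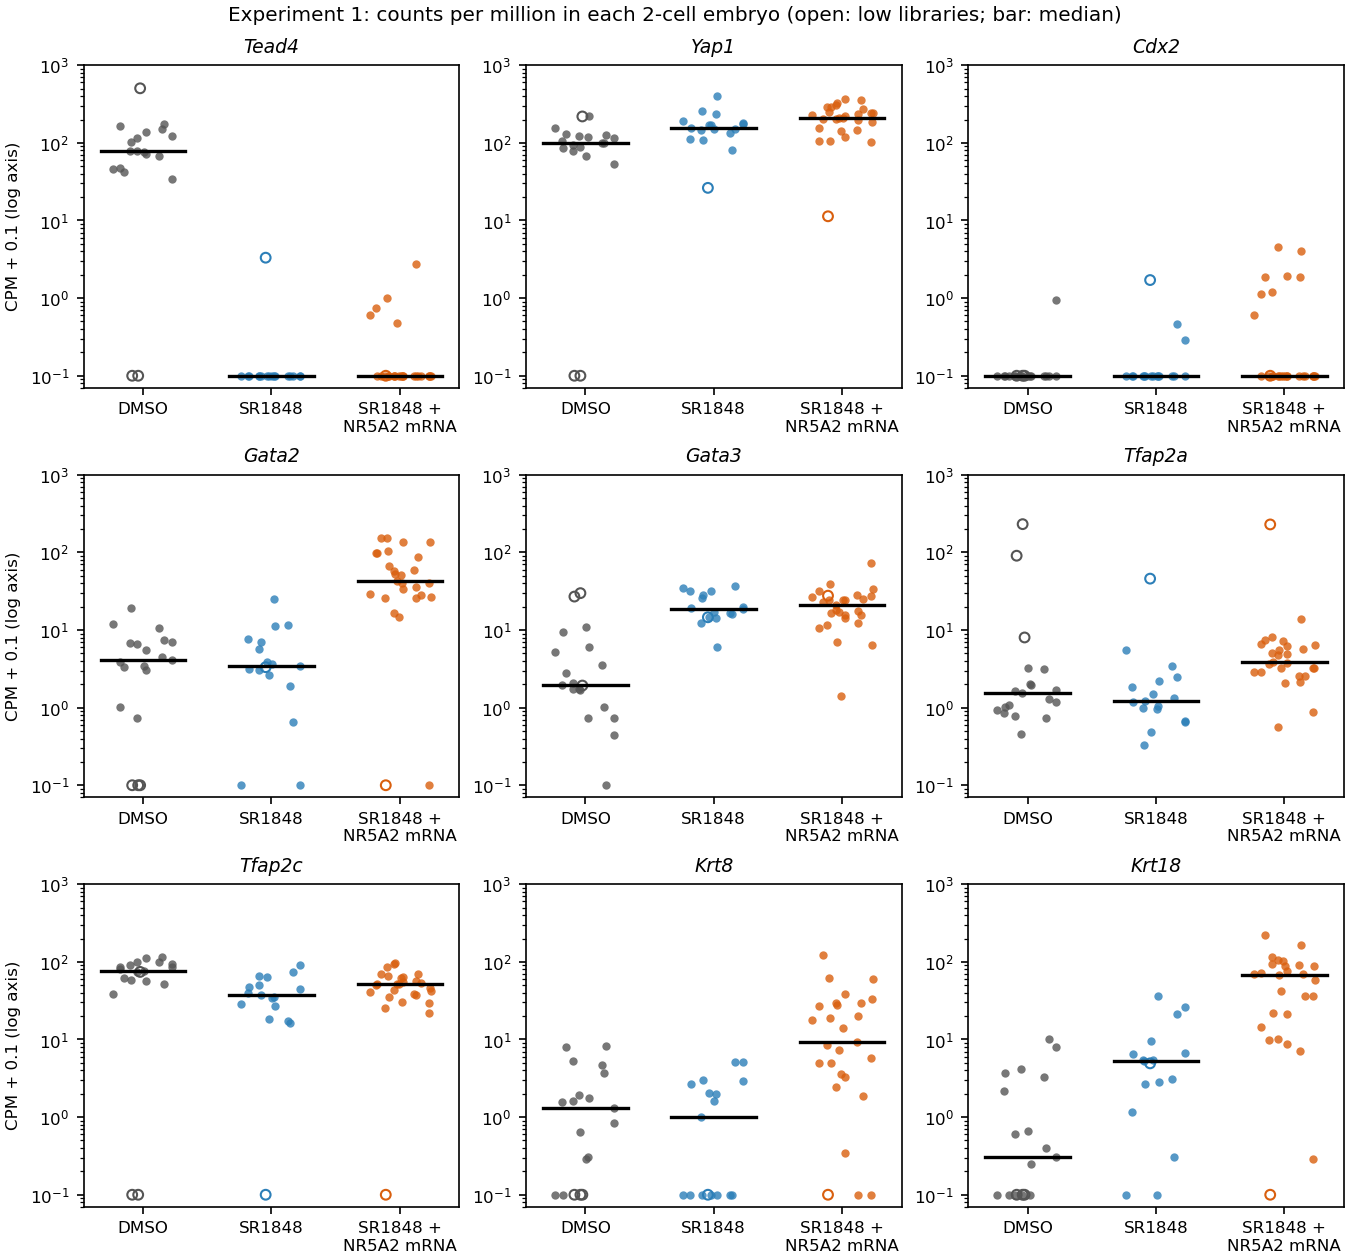
Level of each of the 9 genes in every embryo of experiment 1, as CPM plus 0.1 on a log axis, for the DMSO (n = 19), SR1848 (n = 17) and NR5A2 mRNA (n = 27) groups; open circles are low libraries and bars are medians. Tead4 stands at 0 CPM in 16 of 17 SR1848 embryos, and Gata2, Krt8 and Krt18 stand highest in the NR5A2 mRNA group.

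The comparison of SR1848 with DMSO asks which of these transcripts differ when the receptor inhibitor is present from the zygote on. Tead4 was at or near 0 in every SR1848 embryo, Gata3, Krt18 and Yap1 were higher than in DMSO embryos, and Tfap2c was lower once low libraries were left out. Of the 8 members that passed the filter on low counts, 3 rose and 1 fell (edgeR quasi-likelihood test, Benjamini-Hochberg adjusted p under 0.05), in a comparison in which 68% of the 13613 genes tested were called. The members' median log2 change was -0.10, and that of all genes tested was 0.20. With 4 of 8 members called, the members' share was no higher than the background. When counts were scaled to the oocyte transcripts in place of TMM scaling, the median of all genes tested moved from 0.20 to -1.49 and the calls from 4941 higher and 4317 lower to 1456 higher and 7638 lower, so changes near these sizes depend on the scaling.

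Tead4 (chromosome 6, 128224288 to 128300823 on GRCm38, minus strand) encodes the TEAD factor on which the trophectoderm depends. It ran from 0 to 505 CPM in DMSO embryos, with a median of 78.2, and 17 of 19 libraries had a count. Among SR1848 embryos it had a count in 1 of 17, a low library with 3.22 CPM, and was at 0 in the rest. Without low libraries DMSO embryos ran from 34.4 to 174 CPM and the groups did not overlap. Over the groups, 9645 counts in DMSO stood against 2 counts in SR1848, a ratio of pooled CPM of 3997 with an exact 95% counting interval of 1106 to 33009. Without low libraries SR1848 embryos had no count, and the DMSO level was at least 2471-fold higher (floor of 3 counts over the group). These intervals cover counting error only, and the protocol has no molecular identifiers. The fall passed the test (edgeR adjusted p = 1.6e-14), and it passed under every alternative tried in experiment 1. In DMSO embryos 71.8% of the Tead4 counts were on ENSMUST00000006311 and 21.9% on ENSMUST00000112157, 2 protein-coding transcripts with one start site.

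Yap1 (chromosome 9, 7931999 to 8004596, minus strand), the coactivator that TEAD4 needs, went the other way. It had a median of 98.4 CPM in DMSO embryos (0 to 225) and of 157 CPM in SR1848 embryos (26.2 to 405), and 15 of 17 SR1848 embryos were above the DMSO median, with wide overlap. The log2 change was 0.86 ± 0.33 (SE, edgeR adjusted p = 0.019), but it was 0.62 with RLE scaling (adjusted p = 0.11) and turned to -0.78 with oocyte scaling. The transcript ENSMUST00000086580 took a median of 58.6% of the Yap1 counts in DMSO embryos (0 to 79.5, n = 16) and 84.4% in SR1848 embryos (50.7 to 99.4, n = 16). The mean share was 26.5 percentage points higher (permutation test, adjusted p = 0.00061 over 13 transcript comparisons). Over the summed counts of each group the share was 56.4% in DMSO and 80.5% in SR1848 embryos of experiment 1. In experiment 2 the gap was smaller, with 75.2% in DMSO libraries 9 and 10 and 81.5% in SR1848 embryos, and was not tested. A share does not change with scaling, but kallisto divides reads among transcripts that share most of their sequence.

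The other genes of the Hippo pathway were read from a list of 23, of which 21 were tested. In SR1848 embryos 1 rose and 6 fell, where 68% of all genes tested were called, and the list's median log2 change was -0.12 beside 0.20 for all genes. The kinase Stk3 rose (2.74 ± 0.41, SE), while Mob1a, an adaptor of the LATS kinases, fell (-2.95 ± 0.45) and Wwtr1, the second coactivator of TEAD factors, fell (-4.28 ± 0.60). The 3 adjusted p-values were at most 6.6e-08 (edgeR). Wwtr1 without low libraries ran from 26.2 to 128 CPM in DMSO embryos and from 0 to 11.7 CPM in SR1848 embryos, with no overlap. The paralogues of Tead4, picked after their values were seen, were scarce in both groups without low libraries: the Tead1 median was 4.24 and 1.22 CPM, the Tead2 median 4.84 and 6.19, and the Tead3 median 0.203 and 0.417. Neither Tead1 (-0.36 ± 0.63) nor Tead2 (-0.60 ± 0.51) passed the test, and Tead3 was not tested.

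Cdx2 (chromosome 5, 147300805 to 147307270, minus strand), the homeobox factor downstream of TEAD4, was barely detected. A count was present in 1 of 19 DMSO, 3 of 17 SR1848 and 8 of 27 NR5A2 mRNA embryos of experiment 1, with highest values of 0.835, 1.61 and 4.43 CPM. It did not pass the filter on low counts in experiment 1. A fit with no filter, which rests on those few counts, called it higher in NR5A2 mRNA embryos than in SR1848 embryos (log2 change 2.74 ± 0.95, SE, edgeR adjusted p = 0.029) and than in DMSO embryos (3.21 ± 0.90, adjusted p = 0.0023). Between SR1848 and DMSO embryos that fit did not call it (0.46 ± 0.98, adjusted p = 0.84).

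Gata3 (chromosome 2, 9857078 to 9890034, minus strand), a zinc finger factor that acts beside CDX2, was higher in SR1848 embryos. It had a median of 1.86 CPM in DMSO embryos (0 to 29.7) and of 18.4 CPM in SR1848 embryos (6.00 to 37.0). The highest DMSO values were in low libraries: without these the DMSO group reached 10.9 CPM, and 15 of 16 SR1848 embryos were above it. The log2 change was 2.64 ± 0.44 (SE, edgeR adjusted p = 3.9e-07), and it was 0.91 ± 0.60 with oocyte scaling (adjusted p = 0.18). Its relative Gata2 (chromosome 6, 88193891 to 88207032, plus strand) had medians of 3.96 CPM (0 to 19.0) and 3.36 CPM (0 to 25.1) and did not pass the test: the change was 0.20 ± 0.51 (adjusted p = 0.73) and turned to -0.10 ± 0.51 with RLE scaling and to -1.32 ± 0.54 with oocyte scaling (adjusted p = 0.026).

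Tfap2c (chromosome 2, 172549593 to 172558622, plus strand) encodes AP-2 gamma, a factor of trophoblast stem cells. It had a median of 76.7 CPM in DMSO embryos (0 to 115) and of 37.6 CPM in SR1848 embryos (0 to 92.1). With low libraries in the fit the log2 change was -0.66 ± 0.35 (SE, edgeR adjusted p = 0.090). Without them it fell by 0.72 on the log2 scale (SE 0.20, adjusted p = 0.0015), and 8 of 16 SR1848 embryos were below the lowest DMSO embryo. Tfap2a (chromosome 13, 40715302 to 40738376, minus strand), AP-2 alpha, had medians of 1.42 CPM (0.358 to 231) and 1.12 CPM (0.229 to 45.8), and its change of -0.64 ± 0.77 did not pass the test (adjusted p = 0.46). The high Tfap2a values belonged to low libraries, which ran from 7.91 to 246 CPM. Without them DMSO embryos reached 3.12 CPM and SR1848 embryos 5.47 CPM, and the change was 0.36 ± 0.39 (adjusted p = 0.40). Over 9 alternatives the Tfap2a change ran from -7.91 to 0.36, and it passed in 1 of them. Of the 31-base stretches of Tfap2a, 12.7% occur in other genes.

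The counts of Tfap2c also moved between its transcripts. In DMSO embryos ENSMUST00000122982, a transcript annotated as processed and not as protein coding, held a median of 50.1% of the gene's counts (32.6 to 65.8, n = 16), against 23.1% in SR1848 embryos (0.112 to 51.5, n = 16). The mean share was lower by 24.3 percentage points (permutation test, p = 1e-05, the smallest these permutations can give, adjusted p = 6.5e-05). The protein-coding transcript ENSMUST00000030391, whose start site lies upstream of all others, rose from a median of 1.85% in DMSO to 12.6% in SR1848 embryos (adjusted p = 0.00036), and then to 54.3% in NR5A2 mRNA embryos (7.14 to 88.5, n = 26). The last step was 37.1 percentage points (adjusted p = 6.5e-05). The protein-coding transcript ENSMUST00000170744 held medians of 44.2% (29.3 to 64.2), 40.4% (0.00019 to 99.9) and 7.85% (0 to 60.1) in these groups. Its fall between SR1848 and NR5A2 mRNA embryos passed the test (adjusted p = 0.00097), though SR1848 embryos covered nearly the whole range. In experiment 2 without the 16 libraries ENSMUST00000030391 rose from 29.0% in SR1848 to 55.8% in NR5A2 mRNA embryos (adjusted p = 0.00013), and ENSMUST00000170744 fell from 54.0% to 17.0% (adjusted p = 0.00013). No 31-base stretch of Tfap2c occurred in another gene, so the division concerns only reads of this gene. As for Yap1, kallisto divides these reads among transcripts that share sequence, so the shares are estimates.

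**Figure D2:**
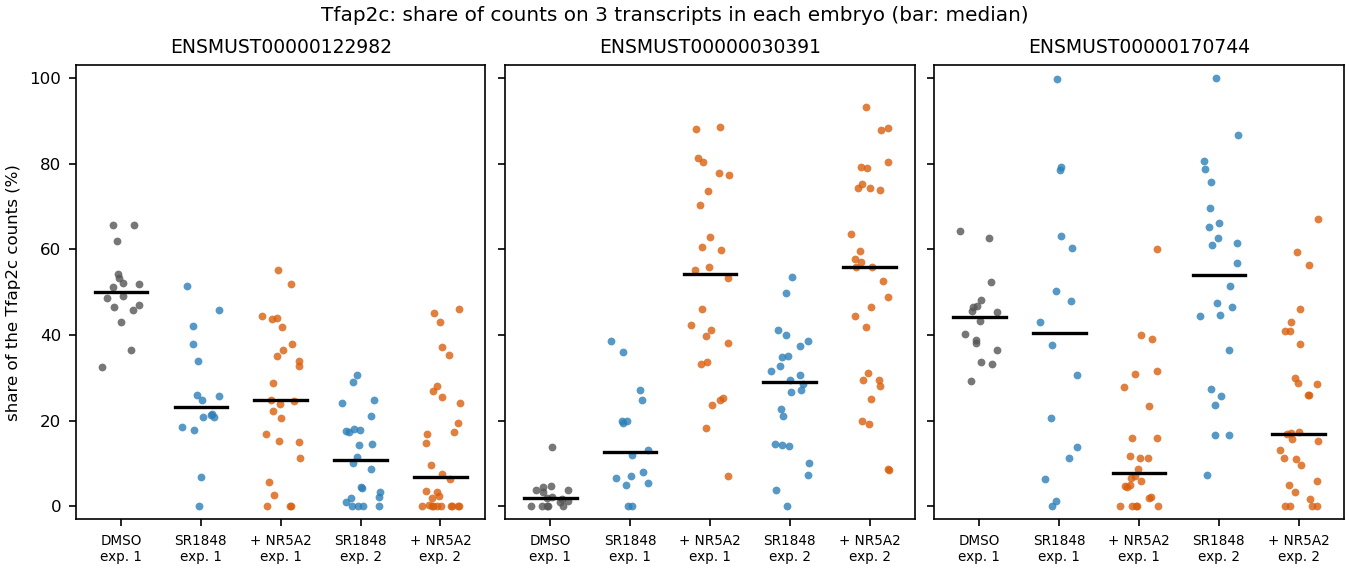
Share of the Tfap2c counts (percent) on 3 transcripts in each embryo with at least 20 counts of the gene, without low libraries and the 16 libraries against their labels; points are embryos, bars medians. The share of ENSMUST00000030391 has medians of 1.85% in DMSO, 12.6% in SR1848 and 54.3% in NR5A2 mRNA embryos of experiment 1.

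The keratin genes lie side by side on chromosome 15, Krt8 (101996698 to 102004482, minus strand) and Krt18 (102028180 to 102032027, plus strand), with start sites 23698 bp apart and no other gene between them. Krt18, the type I partner, had a median of 0.209 CPM in DMSO embryos (0 to 9.95, a count in 11 of 19) and of 5.26 CPM in SR1848 embryos (0 to 36.1, a count in 15 of 17). The ranges overlapped, with 3 SR1848 embryos above the highest DMSO embryo, and the log2 change of 2.28 ± 0.66 passed the test (SE, edgeR adjusted p = 0.0018). It was 0.56 ± 0.69 with oocyte scaling (adjusted p = 0.49). Krt8, the type II partner, had medians of 1.20 CPM (0 to 8.11) and 0.900 CPM (0 to 5.03). Its change of -0.41 ± 0.69 did not pass the test (adjusted p = 0.61), but it passed as a fall with oocyte scaling (-2.16 ± 0.75, adjusted p = 0.0092). Per length, Krt8 was above Krt18 in 9 of 16 DMSO embryos, 1 of 16 SR1848 embryos and none of 26 NR5A2 mRNA embryos of experiment 1, low libraries left out. In experiment 2, without the low libraries and the 16, it was so in 0 of 2 DMSO, 3 of 24 SR1848 and 1 of 30 NR5A2 mRNA embryos. The order of the 2 keratins in DMSO embryos thus differed between the experiments. Reads of Krt8 are shared in part with its pseudogene Krt8-ps: 36% of its 31-base stretches occur in other genes. For Krt18 the share is 11.4%, most of it in Gm5200. Krt8-ps was given counts in 8 of 19 DMSO embryos and in none of the SR1848 or NR5A2 mRNA embryos of experiment 1. In experiment 2 without the 16 libraries it had counts in 1 of 2 DMSO, 6 of 24 SR1848 and 6 of 32 NR5A2 mRNA embryos.

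The comparison of NR5A2 mRNA with SR1848 alone asks which transcripts differ when the receptor is supplied as mRNA under the inhibitor. Gata2, Krt8 and Krt18 rose, and no member fell. These were 3 of the 8 members tested, in a comparison in which 18.4% of 13613 genes were called and 13.3% were called higher. The members' median log2 change was 1.45, and that of all genes tested was 0.03. The comparison shares its SR1848 embryos with the one above.

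Gata2 ran from 0 to 25.1 CPM in SR1848 embryos (median 3.36) and from 0 to 154 CPM in NR5A2 mRNA embryos (median 42.6), and 23 of 27 NR5A2 mRNA embryos were above the highest SR1848 embryo. The log2 change was 3.47 ± 0.54 (SE, edgeR adjusted p = 4.6e-06). Krt8 rose from a median of 0.900 CPM to 9.30 CPM (0 to 122), with 17 of 27 embryos above the highest SR1848 embryo and a log2 change of 3.84 ± 0.74 (adjusted p = 0.0001). Krt18 rose from 5.26 CPM to 68.5 CPM (0 to 219), with 18 of 27 embryos above the highest SR1848 embryo and a log2 change of 3.01 ± 0.65 (adjusted p = 0.00048). The 3 genes rose in all scalings tried, oocyte scaling included.

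The other 5 members tested did not pass in this comparison. Tead4 had a count in 5 of 27 NR5A2 mRNA embryos, at most 2.69 CPM, against 1 of 17 SR1848 embryos. With 24 counts over the NR5A2 mRNA group, the DMSO level was 514 times that of the NR5A2 mRNA group (exact 95% counting interval 345 to 802). Without low libraries Tead4 passed as higher than in SR1848 embryos (edgeR adjusted p = 0.0030), a call that rests on those few counts against none. Gata3 had medians of 18.4 and 20.7 CPM and a log2 change of 0.11 ± 0.38 (SE). The change was 0.33 ± 0.33 for Tfap2c and 0.35 ± 0.31 for Yap1. Tfap2a had medians of 1.12 and 3.77 CPM, with a change of 0.94 ± 0.72 (adjusted p = 0.42). Without low libraries it rose by 1.54 ± 0.36 on the log2 scale (adjusted p = 0.00075), and 8 of 26 embryos were above the highest SR1848 embryo. In that setting 5 of 8 members rose, where 32.6% of 13488 genes were called.

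**Figure D3:**
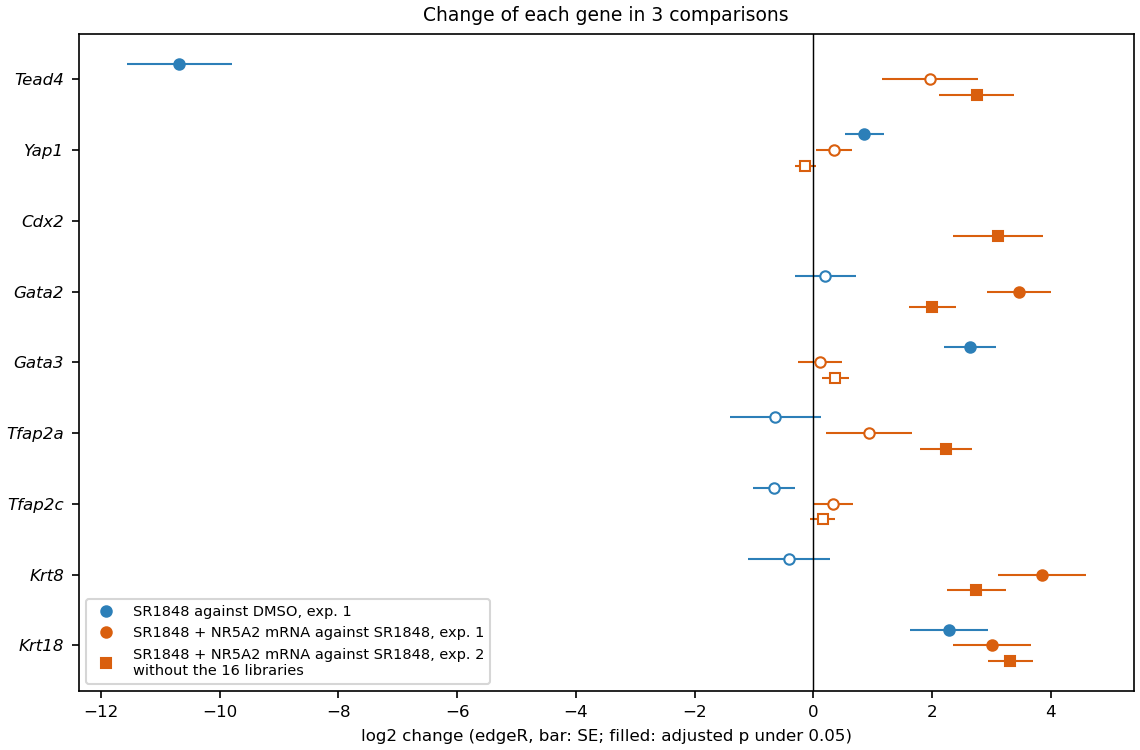
Log2 change of each gene in 3 comparisons (edgeR, point and SE), filled where the adjusted p is under 0.05; circles are experiment 1, squares experiment 2 without the 16 libraries against their labels. Gata2, Krt8 and Krt18 are filled and above 0 with NR5A2 mRNA in both experiments, and Tead4 is at -10.68 in SR1848 against DMSO.

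The stretches before the start sites of these 3 genes are shown because they rose together. They are from RefSeq (GRCm38.p6), 5′ to 3′ on the gene's strand, and hold the bases before the first annotated start site in a window of 250 bases. Capitals mark a GATA motif (GATAAG) in Krt8 and an AP-2 motif (GCCNNNGGC) in Krt18.
Gata2 (chr6:88193641-88193890, plus strand): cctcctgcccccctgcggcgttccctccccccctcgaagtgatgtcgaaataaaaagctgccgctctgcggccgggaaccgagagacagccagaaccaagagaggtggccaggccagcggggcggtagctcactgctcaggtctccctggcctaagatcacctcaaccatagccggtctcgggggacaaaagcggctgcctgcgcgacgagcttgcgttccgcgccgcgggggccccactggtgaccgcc
Krt8 (chr15:102004483-102004592, minus strand): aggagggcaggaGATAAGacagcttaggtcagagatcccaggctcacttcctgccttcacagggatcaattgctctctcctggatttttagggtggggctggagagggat
Krt18 (chr15:102027966-102028179, plus strand): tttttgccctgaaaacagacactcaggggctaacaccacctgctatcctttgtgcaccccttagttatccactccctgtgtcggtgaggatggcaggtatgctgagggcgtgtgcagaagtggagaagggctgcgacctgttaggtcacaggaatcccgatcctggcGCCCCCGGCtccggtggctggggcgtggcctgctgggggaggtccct
The motifs were searched on both strands in all 32851 RefSeq windows of 250 bases before a start site, and in the 9 windows of the 7 members that have an entry. The extended NR5A2 motif TCAAGGNCA occurred in 1.39% of all windows and its core AAGGNCA, which lies inside it, in 17.5%. Neither occurred in a member's window. The TEAD motif GGAATG occurred in 12.6% of all windows and in those of Gata2 (at its second start site) and Yap1, GATAAG in 6.55% and in that of Krt8, and GCCNNNGGC in 13.7% and in those of Gata3, Cdx2, Gata2 (second start site), Yap1 and Krt18. A match is a match of letters only, and distant enhancers were not searched.

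Embryos of the NR5A2 mRNA group differed in how much GFP and Nr5a2 they held. In the 17 embryos of experiment 1 with at least 100 CPM of GFP, Gata2 ran from 26.8 to 154 CPM with a median of 66.9, all above the highest SR1848 embryo. In the 9 with under 100 CPM it ran from 0 to 58.0 CPM with a median of 26.1. Krt18 had medians of 72.5 and 10.2 CPM in these sets, and Krt8 of 19.7 and 2.32 CPM. The 9 embryos under 100 CPM of GFP, compared with SR1848 as a set added after the data were seen, still had higher Gata2 (log2 change 2.23 ± 0.60, SE, edgeR adjusted p = 0.0033). Their Krt18 (2.02 ± 0.82, adjusted p = 0.053) and Krt8 (1.81 ± 0.89, adjusted p = 0.11) did not pass. In experiment 2, the 5 such embryos had Krt18 at 17.1 to 80.9 CPM, above the highest SR1848 embryo at 15.1. Krt8 ran from 1.67 to 12.7 CPM in these 5, where SR1848 embryos ran from 0 to 12.2. Krt18 and Gata2 passed in all 11 alternatives of experiment 2, this set among them. Among embryos with at least 100 CPM of GFP, no member's level passed in a test against the Nr5a2 level: over 16 relations (8 members, 17 embryos of experiment 1 and 25 of experiment 2) the lowest adjusted permutation p was 0.27. For Gata2 in experiment 1 Pearson's r was 0.54 (unadjusted p = 0.026) and Spearman's rho 0.50 (unadjusted p = 0.042), and r was 0.66 without the 2 embryos farthest from the median of Nr5a2. Tfap2a in experiment 1 had r of 0.52 (unadjusted p = 0.033), which was 0.22 without 2 embryos.

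**Figure D4:**
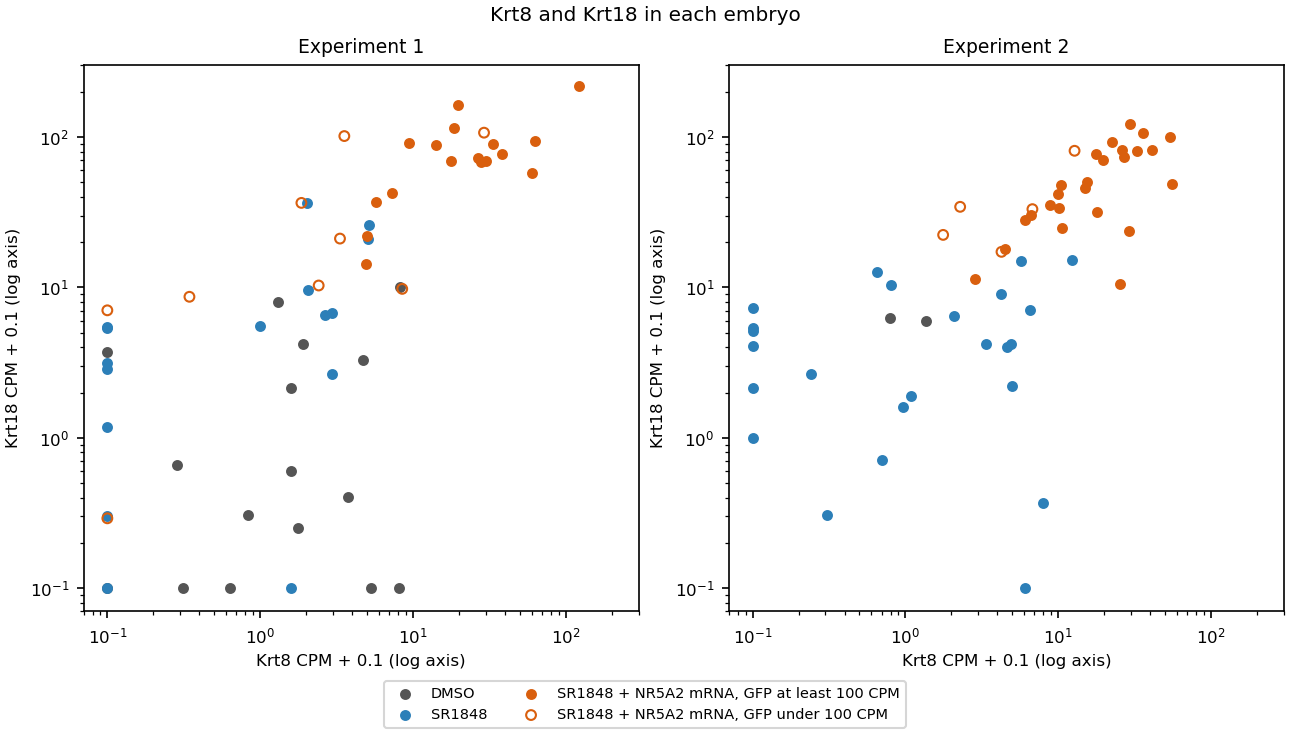
Krt8 against Krt18 in each embryo, as CPM plus 0.1 on log axes, for experiment 1 and experiment 2, without low libraries and the 16 libraries against their labels; open circles are NR5A2 mRNA embryos with under 100 CPM of GFP. NR5A2 mRNA embryos with at least 100 CPM of GFP lie at the upper right, with Krt18 from 14.2 to 219 CPM in experiment 1.

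Markers of other cells were read beside these keratin and Gata2 values. Of a list of 10 blood markers, 8 matched a gene and 2 were tested. The summed level of the 8 had a median of 10.8 CPM in DMSO (0 to 44.7), 27.7 CPM in SR1848 (7.98 to 153) and 240 CPM in NR5A2 mRNA embryos (0 to 1482). Of the 8, only the alpha globin genes Hba-a1 and Hba-a2 had a median of at least 1 CPM in these groups. Hba-a2 had medians of 5.71, 15.2 and 188 CPM, and both Hba-a1 (2.72 ± 0.56, SE) and Hba-a2 (3.03 ± 0.46) rose with NR5A2 mRNA against SR1848. The adult beta globins Hbb-bs and Hbb-bt were at 0 in all SR1848 and NR5A2 mRNA embryos of experiment 1. Of 12 markers of skin and stratified epithelium, 2 were tested and 10 had a median of 0 in NR5A2 mRNA embryos (8 without low libraries). Their summed level was 2.53, 6.19 and 18.3 CPM, and Krt10, a keratin of the epidermis, rose with NR5A2 mRNA (3.96 ± 0.68, edgeR adjusted p = 2.0e-05). Krt14, with a median of 0, still had a count in 13 of 27 NR5A2 mRNA embryos (at most 45.5 CPM). It had none in the DMSO and SR1848 embryos of experiment 1. In experiment 2 without the 16 libraries Krt14 had a count in 16 of 32 NR5A2 mRNA and 0 of 24 SR1848 embryos. Of 18 cumulus and granulosa markers, 8 were tested and their summed level was 120, 33.5 and 46.0 CPM. The part of other cells in the keratin values was not tested.

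Against DMSO, which shares its embryos with both comparisons above, the NR5A2 mRNA group had 5 members higher and 1 lower of 8, where 66.9% of 13613 genes were called. Gata2 (log2 change 3.67 ± 0.52, SE), Krt8 (3.44 ± 0.69) and Krt18 (5.29 ± 0.71) were above the DMSO level, and so were Gata3 (2.75 ± 0.42) and Yap1 (1.20 ± 0.31), all with edgeR adjusted p of at most 0.00052. With oocyte scaling the Yap1 change was -0.02. Tead4 stayed lower (adjusted p = 1.1e-17), and its ranges did not overlap without low libraries, where all 26 NR5A2 mRNA embryos were below the lowest DMSO embryo. Tfap2c (-0.33 ± 0.31) and Tfap2a (0.30 ± 0.68) did not pass. Without low libraries both did, Tfap2c lower by -0.41 ± 0.18 (adjusted p = 0.036) and Tfap2a higher by 1.90 ± 0.37 (adjusted p = 8.1e-06). With oocyte scaling, in a fit that kept the low libraries, Tfap2a was at -6.14. A low DMSO library had the highest Tfap2a value of its group, 231 CPM. The lowest sum of oocyte transcripts in that group was 49.6 CPM, beside a median of 11903. The part of the low libraries in this value was not tested.

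Experiment 2 repeats the comparison of NR5A2 mRNA with SR1848 in other embryos. As labelled, 5 of 8 members tested rose and none fell, where 41.2% of 15266 genes were called. Without the 16 libraries all 9 members were tested, 6 rose and none fell, where 31.3% of 18665 genes were called and 22.7% were called higher. In the remaining 32 NR5A2 mRNA embryos Krt18 ran from 0 to 122 CPM (median 38.5), and 29 were above the highest of the 24 SR1848 embryos (0 to 15.1, median 4.02). Its log2 change was 3.31 ± 0.38 (SE, edgeR adjusted p = 4.8e-10). Krt8 had medians of 13.8 CPM (0 to 55.2) and 0.931 CPM (0 to 12.2), with a change of 2.74 ± 0.50 (adjusted p = 1.7e-05). Gata2 had medians of 33.5 CPM (0 to 147) and 8.75 CPM (0 to 29.7), with a change of 2.00 ± 0.39 (adjusted p = 6.2e-05).

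Tfap2a rose as well in experiment 2, by 2.24 ± 0.44 (SE) on the log2 scale without the 16 libraries (edgeR adjusted p = 5.3e-05) and by 1.22 ± 0.27 when the low libraries were left out too. Cdx2 passed the filter in this setting and rose by 3.11 ± 0.76 (adjusted p = 0.00092). It had a count in 16 of 32 NR5A2 mRNA embryos, at most 5.21 CPM, and in 3 of 24 SR1848 embryos, at most 0.798 CPM. Tead4 had a count in 16 of 32 NR5A2 mRNA embryos, at most 5.61 CPM, and in 3 of 24 SR1848 embryos, at most 0.950 CPM. The 5.61 CPM was in a low library, and without low libraries 15 of 30 NR5A2 mRNA embryos were above 0, at most 3.00 CPM. The log2 change of 2.75 ± 0.63 passed (adjusted p = 0.00044) at levels far below the 91.0 and 128 CPM of the remaining DMSO embryos, 9 and 10. Pooled over these, the DMSO level was 167 times that of the NR5A2 mRNA group (exact 95% counting interval 134 to 210). As labelled, the Tead4 change was 7.03, with libraries 1 to 8 labelled with NR5A2 mRNA at 40.8 to 92.0 CPM. Gata3 (0.37 ± 0.23), Tfap2c (0.16 ± 0.21) and Yap1 (-0.14 ± 0.18) did not pass.

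The size of the NR5A2 mRNA change was compared between the experiments by an interaction test without the 16 libraries. No member passed, where 8.43% of 20706 genes were called (edgeR). The nearest was Gata2, whose change was smaller in experiment 2 by 1.42 on the log2 scale (SE 0.61, unadjusted p = 0.021, adjusted p = 0.16), and it was the only member with an unadjusted p under 0.05. Without low libraries Yap1 was also under 0.05 unadjusted (-0.40 ± 0.19, adjusted p = 0.25).

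SR1848 against DMSO in experiment 2 depends on the 16 libraries. As labelled, 4 of 8 members fell and none rose, where 25.3% of 15266 genes were called: Tead4, Krt18 (-3.18 ± 0.60, SE), Krt8 (-2.73 ± 0.71) and Gata2 (-1.87 ± 0.55). Libraries 1 to 8 labelled DMSO had Krt18 at 10.1 to 139 CPM and Gata2 at 2.50 to 94.5 CPM, while libraries 9 and 10 had Krt18 at 5.84 and 6.20 CPM and Gata2 at 0.919 and 4.83 CPM. Against libraries 9 and 10 alone, 1 member rose and 1 fell, where 32.1% of 18665 genes were called. Tead4 was below both DMSO embryos in 24 of 24 SR1848 embryos (edgeR adjusted p = 1.4e-13). Gata3 was above both in 24 of 24, with a log2 change of 3.13 ± 0.84 (adjusted p = 0.0027) that did not pass without DMSO replicate 9 (2.49, adjusted p = 0.14) and passed without replicate 10 (4.78, adjusted p = 0.0074). Each of these fits has 1 DMSO embryo, which is assumed to vary as the other groups do. The signs of Gata2 (1.87 ± 1.22) and Krt8 (1.47 ± 1.45) turned and Krt18 was at -0.29 ± 0.89, none past the threshold.

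**Figure D5:**
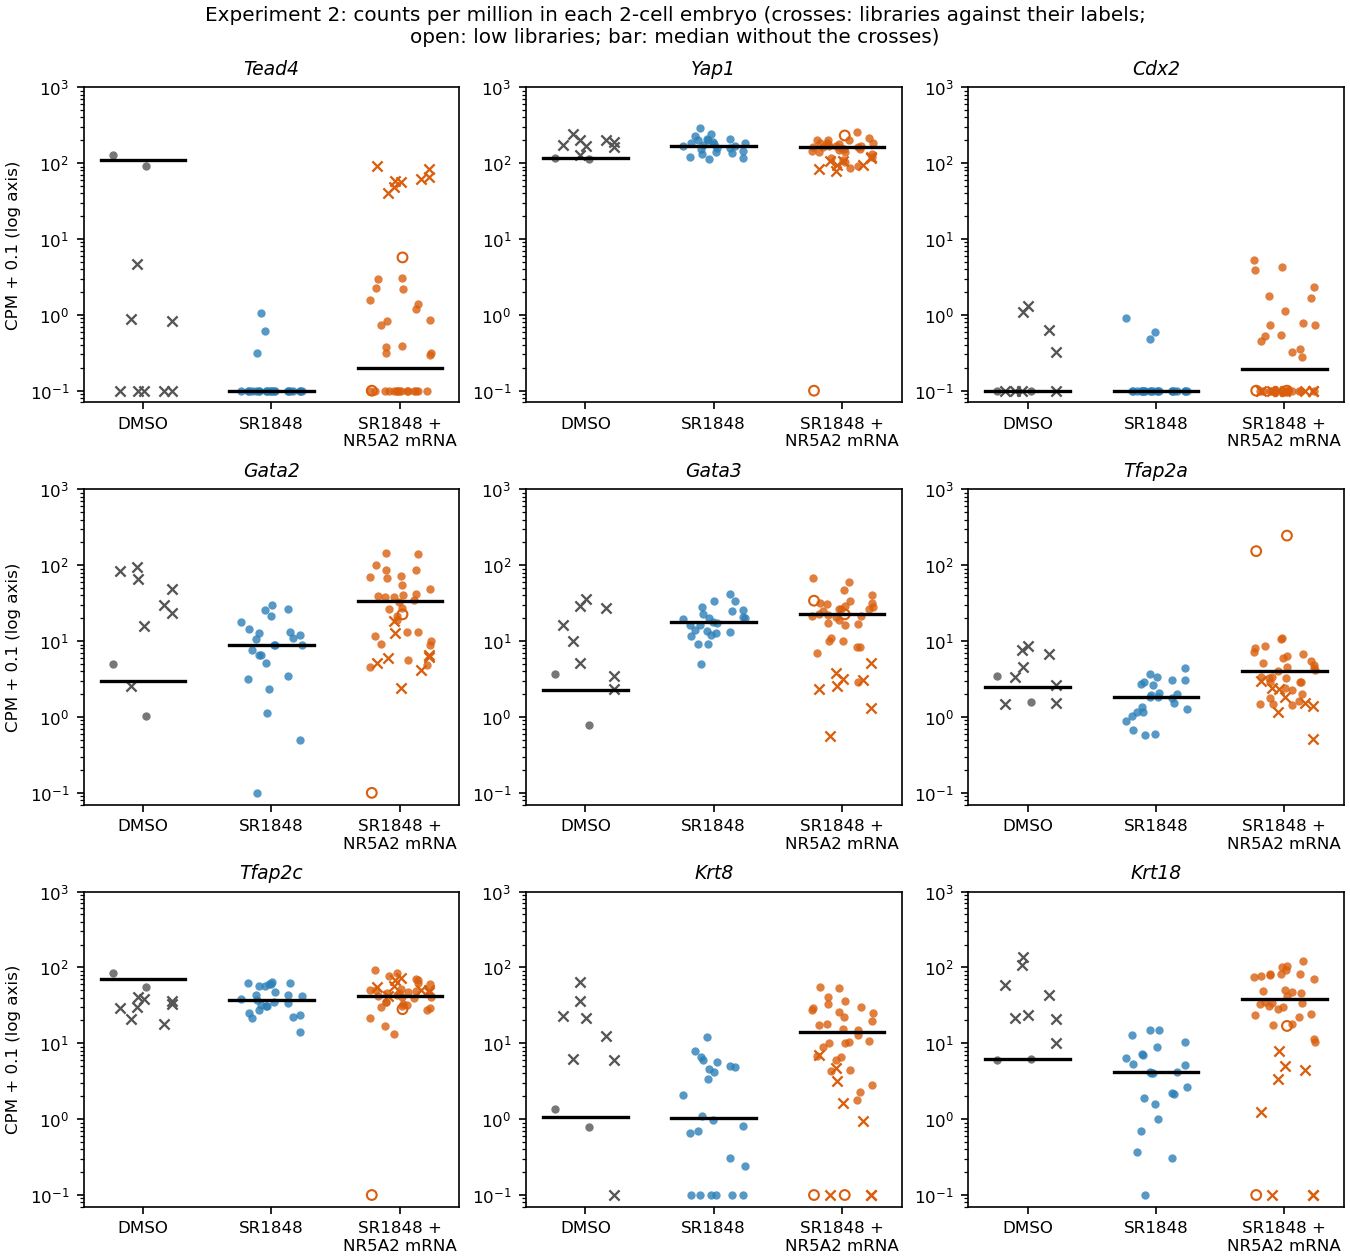
Level of each of the 9 genes in every embryo of experiment 2, as CPM plus 0.1 on a log axis; crosses are the 16 libraries against their labels, open circles low libraries, and bars are medians without the crosses. The crosses in the DMSO column have Tead4 at 0 to 4.64 CPM, and those in the NR5A2 mRNA column at 40.8 to 92.0 CPM.

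Within the DMSO group the members did not vary together in a way the test could detect. Over 16 embryos of experiment 1 without low libraries and the 7 members with a median of at least 1 CPM, none of 21 pairs passed by Pearson's r or Spearman's rho (permutation tests, Benjamini-Hochberg), and none had an unadjusted p under 0.05. The pair with the lowest p was Gata3 and Krt8 (r -0.45, unadjusted p = 0.078; rho -0.29; r -0.21 without 2 embryos). With all 19 embryos 17 of 21 pairs passed by r, and that rested on low libraries: for Tead4 and Yap1 r fell from 0.94 to 0.095 without the 2 farthest embryos.

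Across the 58 embryos of experiment 1 without low libraries, the 3 genes whose levels ranked most like each member's were found among 6522 genes by Spearman's rho, as a description. The points share groups and libraries. Tead4 was followed by Etf1 (rho 0.83), Ddx51 (0.82) and Snx3 (0.82), and Yap1 by Wwc2 (0.86), Igf2bp3 (0.83) and Fkbp5 (0.83). Gata2 was followed by Hba-a2 (0.80), Hba-a1 (0.80) and Msx1 (0.79), Krt18 by Hba-a2 (0.87), Myd88 (0.84) and Fth1 (0.84), and Krt8 by Osr2 (0.80), Hba-a2 (0.74) and Dct (0.70). Among the genes most like Gata3 were Ceacam20 (0.85) and Dpysl3 (0.84). The values of the AP-2 genes were lower: Vmn2r3 (0.75) was nearest to Tfap2a and Emg1 (0.62) to Tfap2c.

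Other genes of the trophectoderm and of its neighbour lineage were read from lists chosen with the members, in experiment 1. Their counts stand beside 68% of all genes called in SR1848 against DMSO, and 18.4% called and 13.3% called higher with NR5A2 mRNA against SR1848, and nothing particular to a list is read from a share near these. Of 21 other trophoblast regulators tested, 8 rose and 7 fell in SR1848 against DMSO. The AP-2 genes Tfap2b (3.94 ± 0.54, SE) and Tfap2e (2.80 ± 0.36) rose and Grhl2, a grainyhead factor of epithelia, fell (-3.31 ± 0.44). With NR5A2 mRNA against SR1848, 7 rose and none fell, Grhl2 among those that rose (1.19 ± 0.39). Of 28 genes of polarity, junctions and cavity formation, 7 rose and 11 fell in SR1848 embryos, among them the catenin gene Ctnnb1 (-3.11 ± 0.46), the junction gene F11r (-4.91 ± 0.84) and Rhoa (-2.42 ± 0.37), and 2 rose with NR5A2 mRNA. Of 11 keratin partners and other simple keratins, 2 rose and 2 fell in SR1848 embryos: Krt7 rose (1.14 ± 0.45), and Lmnb1 (-2.35 ± 0.51) and the desmosome gene Pkp3 (-4.78 ± 0.85) fell. Pkp3 was the member of that list that rose with NR5A2 mRNA (5.06 ± 0.84). Of 18 inner cell mass factors, 5 rose and 6 fell in SR1848 embryos, with Pou5f1 higher (3.03 ± 0.39) and Fgf4 (-6.84 ± 0.96) and Gata4 (-2.39 ± 0.39) lower, and 8 rose and none fell with NR5A2 mRNA. Of the stage markers, 8 of 24 transcripts of the 2-cell stage rose and 9 fell in SR1848 embryos and 18 rose with NR5A2 mRNA, and 42 of 51 oocyte transcripts rose and 2 fell, and 7 fell with NR5A2 mRNA.

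The authors' deposited table compares NR5A2 mRNA with SR1848 against SR1848 alone per transcript. In the authors' deposited table Krt8 (log2 fold change 2.92), Krt18 (2.92), Cdx2 (2.85) and the Gata2 transcript ENSMUST00000170089 (2.32) are marked as higher. Tfap2a is marked as higher in the authors' deposited table for ENSMUST00000224999 (2.97) and ENSMUST00000021787 (1.41), and Yap1 for ENSMUST00000174300, a retained-intron transcript (2.17). Tead4 is marked as higher too in the authors' deposited table for ENSMUST00000006311, with an adjusted p of 3.0e-117 and a fold change of 3.9e-06 on the log2 scale, a value near 0. For Tfap2c the authors' deposited table marks ENSMUST00000030391 as higher (1.20) and ENSMUST00000170744 as lower, the latter with a log2 fold change of -1.5e-05, also near 0. The sources used here say neither which libraries entered it nor which group its signs are counted from. Its mean normalized signal for the Tead4 transcript ENSMUST00000006311 is 78.9. That value is a mean over libraries for a single transcript and is not in CPM. It is therefore not on the scale of the library values that follow, which are for the whole gene. Libraries 1 to 8 labelled with NR5A2 mRNA in experiment 2 had Tead4 at 40.8 to 92.0 CPM. All other SR1848 and NR5A2 mRNA embryos had at most 5.61 CPM. The part of libraries 1 to 8 in the Tead4 mark was not tested.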

How the data were processed

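Single 2-cell embryos were sequenced by SmartSeq2, 137 libraries in 2 experiments. Per the submitters' processing notes the tools were bcl2fastq, Trim Galore 0.6.2, kallisto 0.46.1, R 3.5.1 and DESeq2 1.32.0, with the builds mm10 and hg19. The authors deposited estimated counts per transcript, in which 26.3% of values were not whole (tolerance 1e-9). They also deposited a table of 1 comparison with a mean normalized signal, log2 fold changes with their standard errors and p-values per transcript, per the file headers. kallisto divides reads among transcripts that share sequence, and the strand of the reads was not used here.

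Of 119358 entries, 116682 were paired with a gene through GENCODE M21 and 892 through the authors' deposited table alone. The 1779 unpaired entries held 0.656% of counts and 5 special entries (GFP among them) held 0.158%, and both stayed out of the tests. Counts were summed by symbol to 36097 genes and rounded. Columns were matched to samples by experiment, group prefix and number in their names.

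Each experiment was fitted alone by the quasi-likelihood test of edgeR 4.0.16 under R 4.3.3, after a filter on low counts and TMM scaling (prior count 1), with Benjamini-Hochberg adjustment over all genes tested and a threshold of 0.05. CPM is counts scaled to the library total, and TPM divides by transcript length first. Transcript shares were compared in libraries with at least 20 counts of the gene by a 2-sided permutation test of 100000 resamples over 13 comparisons. Correlations between members or with Nr5a2 used permutation tests (numpy 2.4.6, pandas 2.3.3, scipy 1.17.1). The edgeR fits were tested on simulated data.

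Alternatives were RLE, total count and oocyte-transcript scaling, DESeq2 1.42.0, no filter, no low libraries, no libraries against their labels, a replicate block, fits over both experiments and a split by GFP. The genes named are the 9 members, the 3 tested genes of each list with the smallest p in SR1848 against DMSO, and the 3 genes most like each member, of which 1 is not reported here. The members and lists were chosen with earlier results of these data known. Promoter sequences are from RefSeq for GRCm38.p6, and 7 of 9 members had an entry, all but Tead4 and Tfap2c. No column of the count table was left unused.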

Additional observations from a re-analysis of the deposited data

How the results depend on the processing

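Of the single-gene values recomputed under the alternatives, 374 kept their direction and their side of the threshold, 31 passed it newly, 14 no longer passed and 33 changed sign. In SR1848 against DMSO (9258 genes called in experiment 1, 3859 in experiment 2), NR5A2 mRNA against SR1848 (2507 and 6286) and NR5A2 mRNA against DMSO (9101), fits without the filter called 14210 and 6001, 6352 and 10656, and 14095 genes. Oocyte scaling called 3816 genes with NR5A2 mRNA against SR1848 in experiment 1 (3394 higher, 422 lower, against 1813 and 694), 8781 with SR1848 in experiment 2 (117 higher, 8664 lower, against 704 and 3155), 10597 with NR5A2 mRNA in experiment 2 (10434 higher, 163 lower, against 4596 and 1690), and against DMSO 1947 higher and 6712 lower in place of 5057 and 4044. It moved the median of all genes by more than the members' smaller changes. For NR5A2 mRNA against SR1848 in experiment 1 the counts were 4395 without low libraries, 1662 with GFP of at least 100 CPM, 6158 over both experiments as labelled and 5101 without the 16 libraries. A set with GFP under 100 CPM, chosen after seeing the data, called 4662. Members called were 6 with oocyte scaling, 5 without low libraries and 5 in each fit over both experiments, in place of 3. SR1848 against DMSO in experiment 2 called 5992 genes and 2 members without the 16 libraries, and 7470 genes when low libraries were left out too, also chosen after seeing the data. The difference between experiments called 636 genes without low libraries, and 17 member pairs passed with all 19 DMSO libraries in place of 0.

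The signs that turned in SR1848 against DMSO of experiment 1 were Gata2 with RLE scaling (-0.10), oocyte scaling (-1.32), the replicate block (-0.049) and both experiments as labelled (-0.91), Krt18 with both experiments as labelled (-1.32), Krt8 with both experiments without the 16 libraries (0.27) and the replicate block (0.14), Tfap2a without low libraries (0.36), and Yap1 with oocyte scaling (-0.78). In the same comparison of experiment 2, Gata2 (1.87), Krt8 (1.47), Tfap2c (-0.84) and Yap1 (0.56) turned without the 16 libraries, and Gata2 (2.10), Krt8 (1.68), Tfap2c (-0.62) and Yap1 (0.79) without the low libraries too. There Tfap2c also turned with RLE scaling (-0.022), oocyte scaling (-1.06) and the replicate block (-0.012), Gata3 with oocyte scaling (-0.30), and Yap1 with DESeq2 (0.029), no filter (0.0053) and total count scaling (0.027). With 1 of the 2 remaining DMSO embryos left out, Tfap2a ran from -0.74 to 0.38 (-0.39 with both). In NR5A2 mRNA against DMSO, Tfap2a turned with oocyte (-6.14) and total count scaling (-0.44), and Yap1 with oocyte scaling (-0.015). In NR5A2 mRNA against SR1848, Yap1 turned with both experiments as labelled (-0.0050) in experiment 1 and with oocyte scaling (0.73) in experiment 2, where Gata3 (-1.45) and Tfap2a (-0.12) turned with GFP under 100 CPM and Gata3 with the replicate block (-0.61). The cause was not tested.

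Replicate numbers did not pair embryos: the correlation of deviations ran from -0.34 to 0.12 over 53 pairs in experiment 1 and from -0.49 to 0.32 over 44 pairs in experiment 2, and 2 of 55 and 1 of 58 embryos were closest to their own number. The replicate block called 773 genes with NR5A2 mRNA against SR1848 in experiment 1, and 1853 genes and 2 members with SR1848 in experiment 2. With NR5A2 mRNA against SR1848 in experiment 2 it called Yap1 as lower (-0.39, adjusted p = 0.010), beside 5 members higher. Cdx2, and Tead4 outside DMSO embryos, rest on few counts, and only 2 DMSO embryos of experiment 2 agreed in Nr5a2 and GFP with their label.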
